A study of Caenorhabditis elegans with 2 samples.

Results

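A set of genes encodes transcription factors that build the C. elegans pharynx, the muscular feeding tube of the worm, and the occupancy of CEH-34 around them is described here. They are pha-4, ceh-22, tbx-2, peb-1, pha-2, hlh-6 and pax-1, 7 of 19973 protein-coding genes on the nuclear chromosomes. Every summit in the gene body or within 5 kb on either side was assigned to a gene, which gave 9 summits of the 2490 in the thresholded nuclear list. CEH-34 is a homeodomain factor of the sine oculis family and was mapped by chromatin immunoprecipitation and sequencing, with sonicated chromatin and an antibody against GFP. A thresholded peak is one that passed the authors' test of reproducibility, and a candidate is any entry of the longer lists made before that test. The longer list from both replicates together, the pooled list, is labelled by the authors as peaks and background. A candidate therefore need not be a binding site. Signal is the value the authors gave each peak, also called its height here, on a scale that the sources used do not state. The worms were late embryos of strain OP524, hermaphrodites taken 3.5 hours after egg bleaching, that carry unc-119(tm4063) on chromosome III and the transgene wgIs524, which supplies CEH-34 fused to GFP and FLAG at its C-terminus. There was 1 group with 2 biological replicates and no second condition, so nothing was tested between groups. Chromatin came from whole embryos, of which the pharynx is one organ, so no summit can be assigned to a cell type. The transgene's extra copy of the factor is present in both replicates, and its part in any peak was not tested.

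The pharynx forms from precursors that acquire pharyngeal fate through PHA-4, a forkhead factor of the FoxA class known as the selector of organ identity. Regional and tissue-specific factors then act within the organ. CEH-22 is a homeodomain factor of the NK-2 class expressed in pharyngeal muscle, TBX-2 is a T-box factor needed for part of that muscle, and PEB-1 is a DNA-binding protein known to recognise the enhancer of the pharyngeal myosin gene myo-2. PHA-2 is a homeodomain factor needed for the isthmus, HLH-6 is a basic helix-loop-helix factor of the pharyngeal glands, and PAX-1 is a paired-box factor. CEH-34 itself is known for its role in the pharyngeal nervous system.

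The sequences below run from 50 bases before to 50 bases after the thresholded summit for 6 of the 9 summits, chosen to show the strongest at each of the 5 genes that had one and the one other with a searched word. They are given 5′ to 3′ on the + strand of the RefSeq sequence of WBcel235, whose coordinates are those of ce11. Capitals mark any of 9 short words searched on both strands, and the summit is the middle base.
pha-4, upstream, chrV:20749195-20749295: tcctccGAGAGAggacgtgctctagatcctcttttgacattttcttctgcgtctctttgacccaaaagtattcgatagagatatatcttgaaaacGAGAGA
pha-4, intron, chrV:20757366-20757466: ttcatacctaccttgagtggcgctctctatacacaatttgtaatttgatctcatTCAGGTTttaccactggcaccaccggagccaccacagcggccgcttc
ceh-22, upstream, chrV:10670957-10671057: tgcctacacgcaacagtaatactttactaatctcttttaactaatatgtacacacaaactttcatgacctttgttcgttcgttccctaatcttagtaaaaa
tbx-2, upstream, chrIII:5136365-5136465: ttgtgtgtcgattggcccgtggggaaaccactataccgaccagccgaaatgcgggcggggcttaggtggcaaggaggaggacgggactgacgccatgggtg
peb-1, upstream, chrX:2208943-2209043: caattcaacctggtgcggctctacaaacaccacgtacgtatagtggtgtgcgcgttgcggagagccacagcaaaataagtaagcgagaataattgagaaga
hlh-6 region, intron of dnj-20, chrII:9619547-9619647: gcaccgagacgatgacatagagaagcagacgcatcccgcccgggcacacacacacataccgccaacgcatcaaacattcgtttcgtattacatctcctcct

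Of the 7 genes, 5 had a thresholded summit in this window, namely pha-4 with 4 summits, ceh-22 with 2, and tbx-2, peb-1 and hlh-6 with 1 each. The genes pha-2 and pax-1 had none. In the same kind of window 5005 of 19973 coding genes had a thresholded summit (25.1%), and this share grew with gene length, from 19.8% for gene bodies under 2 kb and 26.4% for 2 to 5 kb to 38.2% for those over 5 kb. All 3 members with gene bodies over 5 kb (pha-4, tbx-2 and peb-1) had a summit, as did ceh-22 but not pha-2 among the 2 of intermediate length, and hlh-6 but not pax-1 among the 2 short ones. Within 1 kb of an annotated 5′ end the count was 3 of 7 (pha-4, ceh-22 and tbx-2), against 8.65% of all coding genes. Within the gene body itself the count was 2 of 7 (pha-4 and ceh-22), against 3.3% of all coding genes. Neither the 8.65% nor the 3.3% was split by gene length or by number of 5′ ends. Of these genes pha-4 has 3 annotated 5′ ends and ceh-22 has 5. The genes were chosen with earlier results of these data known, so these counts describe the set and are not a test of it.

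**Figure D1:**
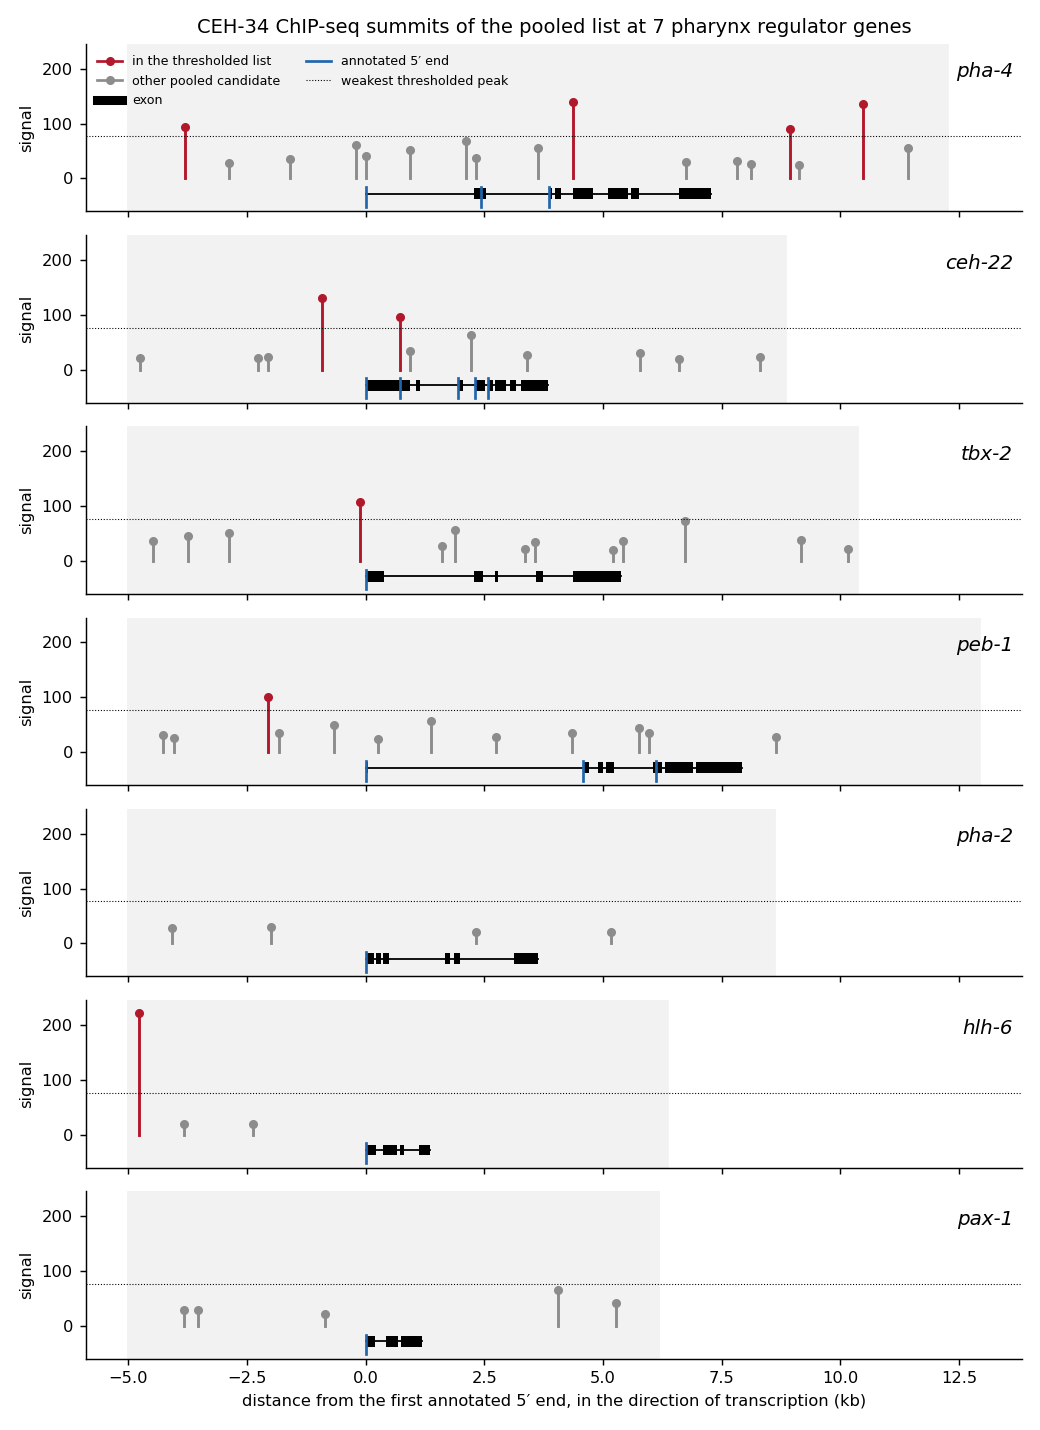
The vertical axis is the signal of each summit of the pooled candidate list, the authors' own value for a peak. The horizontal axis is its distance in kb from the first annotated 5′ end, in the direction of transcription, for the 7 genes. Red stems are the 9 thresholded summits, grey stems the other candidates, black boxes exons, blue ticks annotated 5′ ends, and the shading marks the window. The red stems range from 90.8 to 222, and the windows of pha-2 and pax-1 hold grey stems alone.

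The organ selector gene pha-4 (WBGene00004013, V 20753052 to 20760317, + strand) carried summits on both sides of the gene and inside it. The strongest had a signal of 139 and lay at V 20757416, in an intron 506 bp downstream of the 5′ end of transcript c and 8 bp before the next exon. Replicate 1 gave it a signal of 67.1 (rank 840 of 21705 nuclear candidates) and replicate 2 a signal of 70.3 (rank 985 of 23491). The scale of the heights is not stated and may differ between lists, so ranks are compared between replicates. Here both replicates put the peak at a similar height in their order.

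A second strong pha-4 summit (136) lay 3221 bp past the 3′ end, at V 20763538. It is 1 bp inside the non-coding RNA gene F38A6.8, and the nearest coding 5′ end, 5606 bp away, is that of elp-1, a gene for a microtubule-associated protein of the EMAP type. Its ranks were 947 in replicate 1 and 814 in replicate 2. The remaining 2 were weaker, one 3807 bp upstream of the first 5′ end (94.3; ranks 2477 and 1600 in replicates 1 and 2) and one 1664 bp past the 3′ end (90.8; ranks 2056 and 2010). With 4 summits pha-4 stood among the 64 coding genes (0.32%) that had 4 or more, or 1.33% of coding genes with bodies over 5 kb, a number chosen after the pha-4 count was seen. The 3 summits outside the gene body also lay outside the 1 kb windows of its 5′ ends. Each of them lay in the gene body or 5 kb flanks of 2 coding genes, 1 of them pha-4.

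The 3 annotated 5′ ends of pha-4 each had a weaker candidate just upstream that did not reach the thresholded list. The candidate at -196 bp from the first 5′ end had a signal of 61.7, that at -318 bp from the second had 67.6, and that at -224 bp from the third had 55.0. The first was closer to the 5′ end of a non-coding RNA gene, 70 bp away. The third lay inside another non-coding RNA gene, 51 bp from the 5′ end of that gene. The first and second had a candidate within 100 bp in both replicates, and the third in replicate 1 alone (rank 2320), where the closest summit of replicate 2 was 110 bp away.

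In the muscle factor gene ceh-22 (WBGene00000445, V 10671918 to 10675769, + strand) the 2 thresholded summits differed in how well the replicates matched. The upstream summit at V 10671007, 911 bp before the first 5′ end, had a signal of 131, with 68.03 in replicate 1 (rank 812) and 67.8 in replicate 2 (rank 1058). The other, at V 10672651, had a signal of 95.4, with 25.96 in replicate 1 (rank 5232) and 71.5 in replicate 2 (rank 945). It lay in a coding exon, 17 bp after the 5′ end of transcript d and on the opposite strand's non-coding RNA gene F29F11.19. Its ranks differ 5.54-fold between the replicates, a ratio exceeded by 2.1% of the thresholded nuclear summits found in both, against a median ratio of 1.57 over all of them. When only the 2508 strongest peaks of replicate 1 were used, this summit was no longer at ceh-22 and the upstream one stayed. A further candidate, 84 bp upstream of the 5′ end of transcript e, had a signal of 63.6 and was not thresholded.

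The single thresholded summit of the T-box gene tbx-2 (WBGene00006543, III 5130923 to 5136296, − strand) was the one nearest upstream of the start of transcription. It lay at III 5136415, 119 bp upstream of the only annotated 5′ end, with a signal of 108, 56.5 in replicate 1 (rank 1192) and 47.1 in replicate 2 (rank 2071). The window around it had the highest GC content of the 9 windows, 62.4%, whereas those of the upstream ceh-22 summit had the lowest, 32.7%. Over all thresholded nuclear summits the median was 49.5% and the central 80% ran from 39.6% to 58.4%. The next strongest candidate at tbx-2, with a signal of 73.02, lay past its 3′ end inside sax-2 and fell short of the weakest thresholded peak, 76.5. It was the highest candidate of the 7 genes outside the list, and the 90.8 downstream of pha-4 was the lowest inside it.

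The summit at peb-1 (WBGene00003968, X 2211051 to 2218988, + strand) was intergenic. It lay at X 2208993, 2058 bp upstream of the first 5′ end, with a signal of 100.1, 53.9 in replicate 1 (rank 1304) and 38.5 in replicate 2 (rank 2939). Replicate 1 placed it higher, by a rank ratio of 2.25, which is below the 90th percentile of that ratio over all thresholded nuclear summits (3.06). Rank 2939 put it outside the 2508 strongest peaks of replicate 2, where the summit counted for peb-1 was another one, in an intron at X 2212462 (rank 2423). The other 11 candidates at peb-1 reached at most 56.8, and 6 of the 12 were in introns of the gene.

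The highest signal of the set stood at the gland factor gene hlh-6 (WBGene00001952, II 9613463 to 9614828, − strand), yet at the far edge of its window. This summit (222) lay at II 9619597, 4769 bp upstream of hlh-6, in an intron of dnj-20, a gene for a DnaJ-type chaperone. It was 427 bp upstream of the nearest 5′ end of dnj-20, and 3 coding gene windows shared it. Both replicates placed it alike, with 104 in replicate 1 (rank 283) and 116 in replicate 2 (rank 293). Nearer to hlh-6 there were only 2 candidates, with signals of 19.3 and 18.95, each found in a single replicate. Which of the neighbouring genes this summit belongs to cannot be told from its position.

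For the isthmus factor gene pha-2 (WBGene00004011, X 633368 to 636993, − strand) the candidates were low in signal. The pooled list had 4 candidates, with signals from 20.2 to 30.1, replicate 1 had 2 and replicate 2 had none. The 4 made 0.294 per kb of window, against a median of 0.257 over all coding genes, and 34.4% of coding genes had a weaker strongest candidate. The strongest at pha-2, 1991 bp upstream of the 5′ end, ranked 13069 of 29396 nuclear pooled candidates. At pax-1 (WBGene00003937, V 8224934 to 8226116, + strand) the pooled list had 5 candidates, and the strongest (64.6), found in both replicates, lay 4051 bp downstream of its 5′ end inside rol-3. It was 16 bp from the snoRNA gene C16D9.11, whose part in this candidate was not tested. The candidate closest to pax-1, 851 bp upstream, had a signal of 22.3 and was found in neither replicate's own list. A pooled candidate was present in the window of 82.8% of all coding genes, so its presence at all 7 members sets none of them apart.

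**Figure D2:**
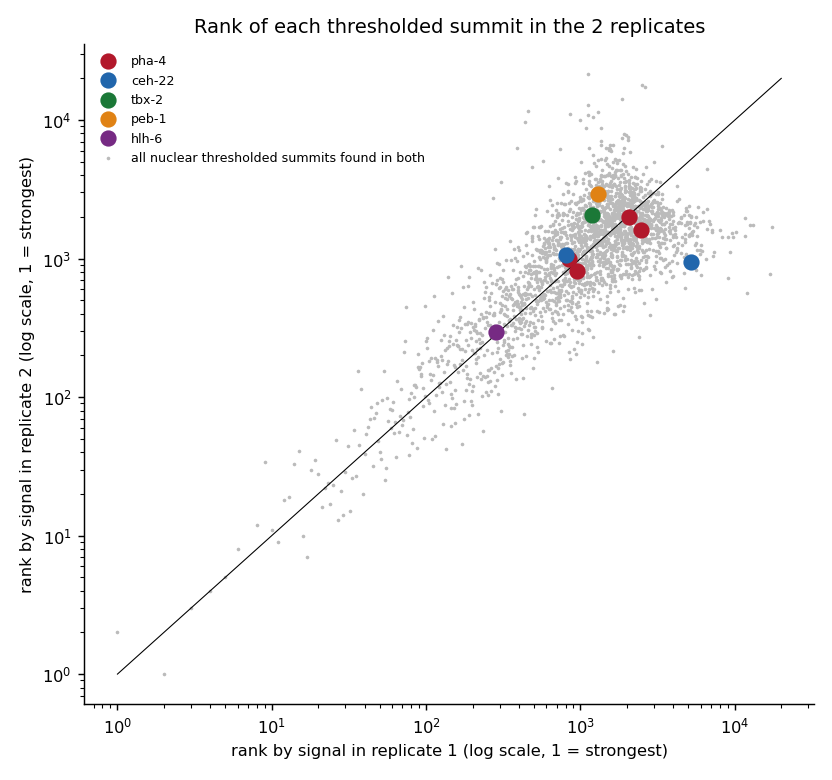
Rank by signal in replicate 1 (horizontal axis) and replicate 2 (vertical axis), both on log scales with 1 as the strongest, for the 9 thresholded summits at the members (large points) and for all thresholded nuclear summits found in both replicates (small grey points); the line marks equal ranks. The hlh-6 region sits at rank 283 in replicate 1 and 293 in replicate 2, and the ceh-22 exon summit lies farthest from the line, at rank 5232 in replicate 1 and 945 in replicate 2.

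All 9 thresholded summits had a candidate within 100 bp in both replicates, as did 95.5% of the thresholded nuclear summits. The thresholded list was selected for reproducibility between these same replicates, so this presence is no separate evidence of agreement. Replicate summits lay 12 to 79 bp apart at the 9, with a list-wide median of 25 bp. By the signal of the pooled call, the order of the strongest summits was hlh-6 region, pha-4, ceh-22, tbx-2 and peb-1. For these same summits replicate 2 gave the same order, while replicate 1 put ceh-22 (rank 812) before pha-4 (rank 840). These neighbours in the order thus did not hold their places. In replicate 2 the strongest summit was another one at pha-4 (downstream, rank 814), ceh-22 (exon, rank 945) and peb-1 (intron, rank 2423). Relative to the list, the signals were ordinary. Of the 9, 4 were above the nuclear median of 114 and 5 below it, and the ranks ran from 271 to 1892 of 2490. Among the 5005 coding genes with a thresholded summit, 86.0% had a weaker strongest summit than hlh-6, 59.5% than pha-4, 55.02% than ceh-22, 37.8% than tbx-2 and 29.1% than peb-1.

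Candidates were many around 4 of the genes. The windows of the 7 genes held 65 pooled candidates, of which 17 were at pha-4, 13 at tbx-2, 12 at peb-1 and 11 at ceh-22. At pha-4 this was 0.985 candidates per kb of window, against a median of 0.257 over all coding genes, and 99.8% of coding genes had fewer per kb. The corresponding shares were 99.2% for tbx-2, 98.7% for ceh-22 and 95.5% for peb-1. The other members were lower, with 78.8% for pax-1, 57.2% for pha-2 and 51.5% for hlh-6. The pha-2 share was 38.9% in replicate 1 and 0 in replicate 2, which had no candidate there, and that of hlh-6 was 48.4% in replicate 1 and 45.8% in replicate 2. For pax-1 it was 82.3% in replicate 1 and 65.01% in replicate 2, and for peb-1 94.6% and 92.7%. These are positions in a distribution over genes, with no test. By its label the pooled list includes background entries, and candidates are close neighbours in places. Counting overlapping candidate intervals once, an alternative chosen after seeing the data, gave 99.8% for pha-4, 98.8% for both tbx-2 and ceh-22, and 93.04% for peb-1. The ceh-22 value rested on replicate 2. Its share was 72.9% in the list of replicate 1 (4 candidates) and 98.02% in that of replicate 2 (9 candidates), against 99.9% and 98.8% for pha-4 and 99.7% and 99.5% for tbx-2 in replicates 1 and 2.

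**Figure D3:**
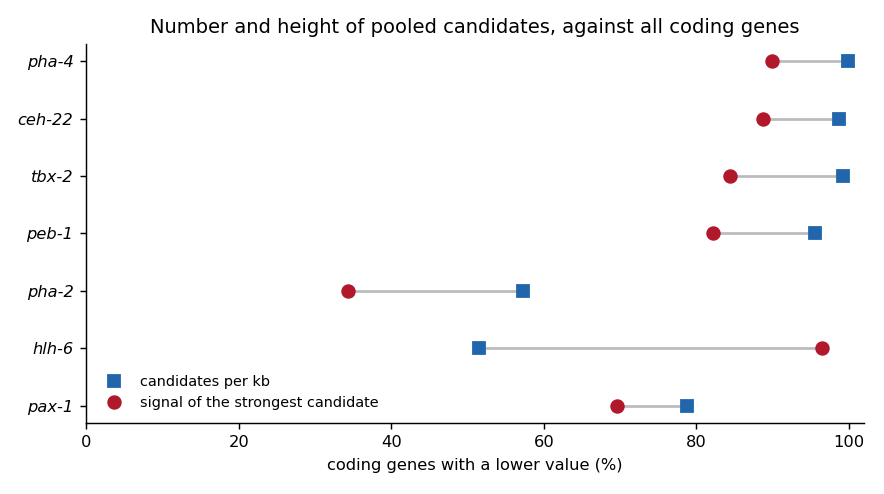
Percentage of all coding genes with fewer pooled candidates per kb of window (blue squares) and with a weaker strongest candidate (red circles) than each of the 7 genes. For pha-4, ceh-22, tbx-2 and peb-1 the square lies to the right of the circle (99.8% against 89.9% for pha-4), and for hlh-6 the circle (96.5%) lies far to the right of the square (51.5%).

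Most candidates were not seen in both replicates. Of the 65, 26 (40.0%) had a candidate within 100 bp in each replicate, against 26.4% of all nuclear pooled candidates. The 26 were 9 of 17 at pha-4, 7 of 13 at tbx-2, 3 of 11 at ceh-22, 3 of 12 at peb-1, 3 of 5 at pax-1, 1 of 3 at hlh-6 and 0 of 4 at pha-2. At pha-4 the other 8 were in 1 replicate each, and no pha-4 candidate was absent from both.

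**Figure D4:**
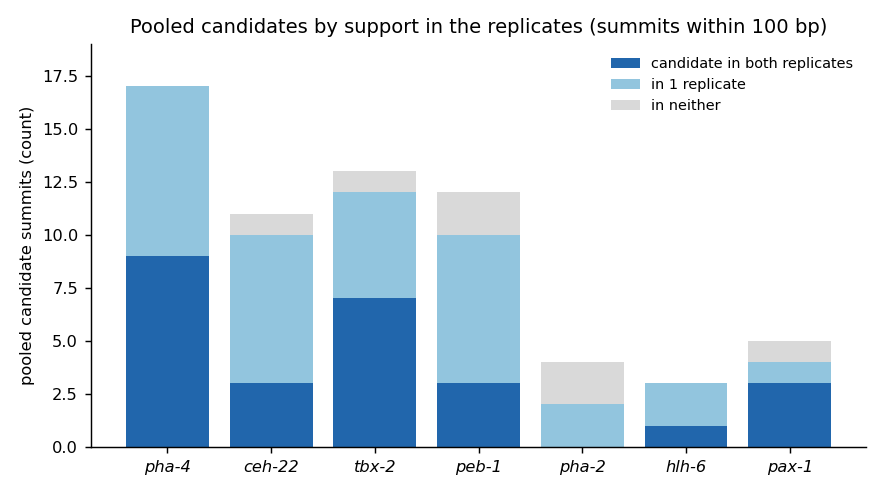
Number of pooled candidate summits in the window of each gene (vertical axis), split by whether a candidate summit lay within 100 bp in both replicates, in 1 or in neither. The tallest dark bars are those of pha-4 (9 of 17) and tbx-2 (7 of 13), and pha-2 has no dark bar.

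Known words for the factors were rare at these summits, as they were over the whole thresholded nuclear list. Within 50 bp of a summit the sine oculis core TGATAC was at 0 of 9 and at 3.21% of all thresholded nuclear summits, and the related TCAGGTT was at 1 of 9 and at 1.53% of all. That match, in the pha-4 intron, began 4 bp after the summit and spanned the boundary of the next exon, with 4 of its bases before the exon and 3 inside it. No forkhead word was found at the 9, while among all thresholded nuclear summits TGTTTGC was at 4.54%, TGTTTAC at 1.65%, TATTTGC at 2.01% and TATTTAC at 0.924%. The NK-2 word CACTTNA was at 0 of 9, against 3.41% of all. The E-box CAGCTG was likewise at 0 of 9, against 3.94%. The GA repeat GAGAGA was at 1 of 9, the upstream pha-4 summit, where it occurred at both ends of the window, against 28.8% of all. In all, 2 of 9 windows held any of these words, against 43.1% of the thresholded nuclear windows. The GA repeat, not a word of these factors, was by far the most frequent word in that list. Each other word was at 4.54% of all or less, so 0 or 1 of 9 does not set the members apart. A match of letters is no site, and a missing word says nothing about the factor.

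None of the 9 summits lay within 200 bp of a tRNA, rRNA, snRNA or snoRNA gene, and the closest such gene was 2818 bp from the hlh-6 region summit. Of the 9, 8 had the common width of 450 bp, and the hlh-6 region peak spanned 263 bp. Relative to the member, 5 were upstream, 2 inside the gene and 2 past its 3′ end, and 4 lay within 1000 bp of one of its 5′ ends. Most were not in the window of the member alone. The pha-4 intron summit lay in 1 coding gene window, the hlh-6 region summit in 3 and each other summit in 2. The median over thresholded nuclear summits was 2. Having 2 or more summits, as pha-4 and ceh-22 did, occurred in 6.04% of coding genes.

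Other genes linked to the pharynx or its formation were read the same way from 4 further lists. Of their 37 genes, 13 had a thresholded summit in the window, against 25.1% of all coding genes. These 37 were not split by gene length. Of 13 genes of early foregut fate, 4 had one. They were lag-1, the DNA-binding effector of Notch signalling (196, in an intron), skn-1, a maternal factor of the lineage that makes part of the pharynx (107, in an intron), sys-1, a beta-catenin (490, nearest to his-68), and med-2, a GATA factor (122, nearest to brd-1). Neither glp-1, a Notch receptor gene, nor the T-box genes tbx-37 and tbx-38 had one, and their strongest candidates had signals of 46.4, 40.6 and 50.5.

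Of 9 genes of the organ formation network around pha-1, 4 had a summit, each of them with at least 1 within 1 kb of a 5′ end, against 8.65% of all coding genes for that distance. These were lin-35, the retinoblastoma family gene (393), sup-35 (197), sup-37 (156) and htz-1, the gene of a histone variant known to act with PHA-4 (129). Only that of sup-37 was nearest to the listed gene, since those of lin-35, sup-35 and htz-1 were nearer to the 5′ ends of vps-51, Y48A6C.4 and wapl-1. The gene pha-1 itself had none, with a strongest candidate of 44.1. Of 8 genes of pharyngeal muscle products 3 had one, the light chain genes mlc-1 and mlc-2, which share their strongest summit (153), and the troponin I gene tni-4 (135, nearest to nbet-1). The others, myo-1, myo-2, myo-5, tnc-2 and tnt-4, had none. Their strongest candidates ran from 28.3 at myo-5 to 37.1 at myo-2. Of 7 gland and arcade genes 2 had one, the junction gene ajm-1, with 4 summits (154 at most), and phat-6 (158, nearest to T10B10.4). The gland genes phat-1, phat-2 and phat-3, expressed in the pharyngeal glands, had no candidate at all. Of the same list, phat-4 had 7 candidates and phat-5 had 5, none thresholded and the strongest 48.5 in each. Over the 4 lists 32 of 37 genes had a pooled candidate, against 82.8% of all coding genes.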

How the data were processed

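Binding of GFP-tagged CEH-34 was measured in 2 replicates of 1 group. The authors deposited peak lists. Per the file lists that come with them, candidates were derived from the alignment of each replicate and from both together, with a further input file that they do not describe, and the irreproducible discovery rate between replicates set which peaks entered the thresholded list. The sources used here name neither the aligner nor the peak caller. The deposited signal is a value per peak on a scale that may differ between lists, so signals are compared inside 1 list at a time. The deposited −log10 q-value is described once. Read depth is not analysed here, and counting error is therefore unknown.

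The ce11 lists were joined to Ensembl release 115 on WBcel235 (ce11 coordinates) with Python 3.11.15 and pandas 2.3.3. The ce10 lists were not used here. Ranks count nuclear peaks. The summit was column 2 plus column 10, counted from 1. Replicate summits matched within 100 bp, and words were searched within 50 bp. The summit assignment and word search were tested on simulated data. No hypothesis was tested, since there is 1 group, and backgrounds are shares of all coding genes or all thresholded summits. The members, the lists and the naming rule (every thresholded summit of a member, its nearest gene, and listed genes with a summit) were chosen with earlier results of these data known. Genes named outside the rule (glp-1, tbx-37, tbx-38, pha-1, phat-1, phat-2, phat-3, phat-4, phat-5, sax-2, rol-3, myo-1, myo-2, myo-5, tnc-2, tnt-4) were chosen after their values were seen. Alternatives are flanks of 2 and 10 kb, windows at 5′ ends, the 1245 strongest peaks, each replicate alone, and other distances.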

Additional observations from a re-analysis of the deposited data

How the results depend on the processing

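With each replicate's 2508 strongest peaks alone, 5 members had a summit, although in replicate 2 that of peb-1 was an intronic one (rank 2423) and not the thresholded one (rank 2939), and in replicate 1 the ceh-22 exon summit (rank 5232) was left out. In these lists the counts of summits (10 without replicate 1, 11 without replicate 2), candidates and coding genes stayed within 1.5 times. Flanks of 2 kb left 3 members (pha-4, ceh-22 and tbx-2) with 5 summits, all 5 in both replicates, 40 candidates and 3128 coding genes. With 10 kb, 7558 coding genes had a summit. The 1245 strongest peaks left 3 members (pha-4, ceh-22 and hlh-6) with 4 summits, all 4 in both replicates, and 2844 coding genes. Thresholded peaks had been selected for reproducibility, so their presence in both replicates is no separate evidence in these settings. Within 1 kb of a 5′ end, 3 members and 1727 coding genes had one. Words within 25 bp were at 1 summit and within 100 bp at 4. The signal percentile of the strongest summit of the 5 genes lay between 87.5 and 98.8 in the replicates' own lists, and 7 of 10 such values differed from the pooled percentile by more than the replicates' spread. For candidates per kb, the percentage of coding genes with fewer moved beyond the spread in 12 of 21 alternatives and ran from 0 (pha-2 without replicate 1) to 99.9 (pha-4 without replicate 2). For pha-2 and hlh-6 it was over 50 in the pooled list and under 50 in each replicate alone. Signal heights carry no counting error here, so differences between neighbouring summits within a list have no interval. No paired analysis was possible because there is a single group.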

Other observations

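The −log10 q-value did not follow signal at these genes. The hlh-6 region summit, the strongest, had 2.95, the highest of the 9. The next strongest, in the pha-4 intron, had 2.28, the lowest of the 9, and the weakest, downstream of pha-4, had 2.63. The same pattern held across the thresholded nuclear list when it was divided into 5 equal groups by signal. The median −log10 q was 2.95 in the strongest group, 2.36 in the next and then 2.45, 2.59 and 2.69 in the following ones. Its cause was not tested, and a member's q-value therefore does not rank it against the others.

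At the ceh-22 exon summit the replicates also differed in their surroundings. The pooled list had a further candidate in the adjoining intron, 934 bp from the first 5′ end (signal 33.7), with an interval that overlapped the exon peak. It had a partner in replicate 2, 948 bp from that 5′ end (rank 8978), and none within 100 bp in replicate 1. In total ceh-22 had 9 candidates in replicate 2 and 4 in replicate 1. The reverse was seen at pha-4, with 12 in replicate 2 and 16 in replicate 1, although replicate 2 had the longer list over the genome. Read depth and quality of the libraries were not analysed here, and their part in these counts was not tested.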
